A study of Homo sapiens with 24 samples.

Results

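The mitochondrial ribosome genes examined here are the protein-coding genes whose symbol is MRPL or MRPS followed by a number. Of the 21386 gene identifiers in the count tables, 78 met this rule, 49 of them MRPL genes of the large subunit and 29 MRPS genes of the small subunit, spread over 21 chromosomes. There were 24 libraries, made of the melanoma line A375 and the lung adenocarcinoma line A549 with 4 groups per line and 3 replicates per group. The groups were parental cells and cells carrying a lentiviral, Dox-inducible shRNA against MCM7 (shMCM7 cells), each grown for 72 hours with 1 µg/ml doxycycline (Dox) or without it (noDox). All cells, controls included, were held at the G1/S boundary by a double thymidine block. The shMCM7 cells were puromycin-selected populations rather than single clones, and their controls here were parental cells without any shRNA.

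The mitochondrial ribosome translates the few mRNAs that mitochondrial DNA still encodes, all of them for subunits of the respiratory chain and the ATP synthase. Its ribosomal RNAs come from mitochondrial DNA, whereas its proteins are encoded in the nucleus, made in the cytosol and imported. Some of these proteins descend from bacterial ribosomal proteins, and others were gained by mitochondria. Tetracyclines such as doxycycline bind the bacterial ribosome and also inhibit translation in mitochondria, so that the inducer of the shRNA acts on the machine these genes encode. The symbol does not always give the place of the protein. MRPS18A and MRPS30 were later found in the large subunit, and MRPS36 belongs to the α-ketoglutarate dehydrogenase complex. Below, genes are assigned to a subunit by symbol, sums and ratios included, except where these genes are left out.

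The shRNA sequence is shown because it separates the shMCM7 from the parental cells and could in principle match other transcripts. Its target in MCM7, as given by the submitters, is the following stretch of 21 bases.
shMCM7 target: cagaggaggatttctacgaaa
A full match was found in GENCODE 29 only in transcripts of MCM7, and in 0 of the 499 transcripts of the mitochondrial ribosome genes.

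Promoter sequences of 69 of the 78 genes were matched by symbol in RefSeq (GRCh38.p14). The 250 bases before each start site were searched on both strands for exact letters that factors of mitochondrial biogenesis are known to prefer. The letters CCGGAAG, the core recognised by ETS factors such as NRF2 (GABP), were present before 23 of the 69 genes (33.3%), against 11.97% of 14896 protein-coding genes. The 23 comprised 14 large and 9 small subunit genes. The palindrome of NRF1, spelled by the capitals in the line of MRPL17, was present before 1 gene, MRPL17 (1.45%, against 1.48% of all), and the letters AAGATGGC of YY1 before 5 genes (7.25%, against 1.4%). The TATA box (TATAAA) was present before 2 genes (2.9%, against 8.97%). These are letter matches and not sites of measured binding. The stretches below hold the matches of the 5 genes with ETS letters that fell in induced shMCM7 cells. They also hold those of MRPL33, which rose against parental cells under Dox, and of MRPL17. MRPL51 and MRPS34 were added as the most abundant transcript of each subunit in A375 parental noDox cells. Each is written in the direction of the gene, ends before the start site and has the match nearest to that site in capitals. CTTCCGG is the ETS match on the other strand. Further matches are not marked, such as cttccgg in lower case in the stretches of MRPL51 and MRPS34.
MRPL20, chr1:1407294-1407334, minus strand: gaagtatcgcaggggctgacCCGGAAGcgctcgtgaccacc
MRPL27, chr17:50373185-50373212, minus strand: gaagtagaaacttttcgagaCCGGAAGt
MRPL38, chr17:75905066-75905112, minus strand: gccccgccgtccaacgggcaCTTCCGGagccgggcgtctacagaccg
MRPL58, chr17:75012642-75012669, plus strand: ccgcggggaggaagcgcccgCCGGAAGc
MRPS18A, chr6:43687796-43687842, minus strand: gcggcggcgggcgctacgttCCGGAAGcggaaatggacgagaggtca
MRPL33, chr2:27771691-27771718, plus strand: ttccagaaccgggccgtgccCCGGAAGc
MRPL51, chr12:6493340-6493386, minus strand: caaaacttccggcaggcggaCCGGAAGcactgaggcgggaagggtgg
MRPS34, chr16:1773135-1773173, minus strand: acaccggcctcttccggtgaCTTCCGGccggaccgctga
MRPL17, chr11:6683392-6683441, minus strand: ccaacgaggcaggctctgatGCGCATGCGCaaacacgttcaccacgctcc
In this set the marked ETS match of MRPL27, MRPL58 and MRPL33 began 8 bases before the start site, and that of MRPL38 began 208 bases before it.

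The A375 libraries held 146656792 to 283721575 counts and the A549 libraries 17911338 to 23452823. Each gene was well covered, since the lowest count of any of the 78 genes was 973 in an A375 library and 114 in an A549 library, and all 78 entered every test. Levels are given as CPM, the counts scaled to a common library size, on totals scaled by TMM within each line. MCM7 itself stood at 76.3 to 77.4 CPM in A375 shMCM7 Dox and at 344 to 369 CPM in the 6 parental libraries. In shMCM7 noDox it was at 353 and 359 CPM in replicates 2 and 3 but at 131 CPM in replicate 1, and the numbers of called genes in the comparisons that use this library are given with and without it, as are log2 fold changes of the leading genes. The counts of other gene lists and of gene pairs are given only with it. In A549, 3 libraries of 3 different labels had low MCM7, namely shMCM7 Dox 3 (95.6 CPM), shMCM7 noDox 2 (100.3 CPM) and parental noDox 2 (90.3 CPM), whereas the other 9 had 294 to 339 CPM. The A549 labels and the MCM7 counts therefore disagree, and A549 is described by label and by single library. The melanocyte-lineage factor SOX10 was at 500.2 to 676 CPM in A375 and at 0 in every A549 library, where the keratin KRT7 reached 1680 to 2342 CPM. The pigment cell genes MLANA and TYR were at or near 0 in A375, as were the lung surfactant gene SFTPB and NKX2-1 in A549. Some other genes used as markers of melanoma or of lung epithelium went the opposite way. The medians of MITF (41.4 against 33.1 CPM), SOX9 (24.7 against 2.19 CPM) and AXL (352 against 311 CPM) were higher in A549 than in A375. That of the lung marker MUC1 was higher in A375 than in A549 (6.91 against 2.86 CPM). PTPRC (leukocytes), PECAM1 (endothelium) and DES (muscle) did not exceed 0.428 CPM in any of the 24 libraries. Since these are bulk libraries, fewer cells with a transcript and less of it per cell cannot be told apart.

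The transcripts of the mitochondrial ribosome were abundant but far from equal. In A375 parental noDox cells the median level per exon length was 22.0 RPKM over the 78 genes (23.2 for the large and 18.3 for the small subunit), against 8.04 RPKM over all genes above 1 RPKM. MRPL51, a large subunit protein without a bacterial homolog, was the most abundant at 107.7 ± 3.30 RPKM (SD, n = 3). It was followed by MRPL12, the stalk protein that also binds the mitochondrial RNA polymerase, at 79.5 ± 1.75 RPKM. MRPL24 stood at 64.4 ± 1.15 RPKM. Among small subunit genes MRPS34, MRPS21 and MRPS26 led with 74.6 ± 4.20, 68.5 ± 2.63 and 57.4 ± 2.20 RPKM. The order depended on the length used. By the longest transcript in place of all exons MRPL51 stayed first (135 RPKM), but MRPL24 (110.3 RPKM) and MRPL33 (109.3 RPKM) came next and MRPL12 (79.5 RPKM) was the sixth, while MRPS34, MRPS21 and MRPS26 still led the small subunit. Of the 10 highest genes 8 were shared by both orders.

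The lowest levels in the large subunit were those of MRPL23 (1.97 ± 0.083 RPKM), MRPL42 (4.70 ± 0.248 RPKM) and MRPL46 (4.91 ± 0.347 RPKM). MRPS18C (5.60 ± 0.343 RPKM), MRPS5 (6.47 ± 0.160 RPKM) and MRPS33 (8.43 ± 0.546 RPKM) were lowest in the small subunit. MRPL23 encodes a protein near the exit of the peptide tunnel, and its gene overlaps the antisense gene MRPL23-AS1. By the longest transcript, which has 919 bases against 2975 in all exons, MRPL23 was at 6.38 RPKM, above MRPL46 (5.68 RPKM) and MRPL42 (4.94 RPKM). Most neighbours in the order could not be told apart, since only 11 of 77 neighbouring pairs differed by more than their SDs together. MRPL51 stood apart from MRPL12, whereas MRPL12 did not stand apart from MRPS34. In A549 parental noDox 7 of the 10 highest genes were shared, and MRPL12 then came first at 97.4 RPKM and MRPL33 second at 93.7 RPKM. The small subunit was led there by MRPS35 at 56.1 RPKM, with MRPS34 at 49.2 RPKM. These A549 means include parental noDox 2, which had low MCM7. In A375, MRPL33 was the eighth at 51.8 ± 2.58 RPKM by all exons and the third by the longest transcript.

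**Figure D1:**
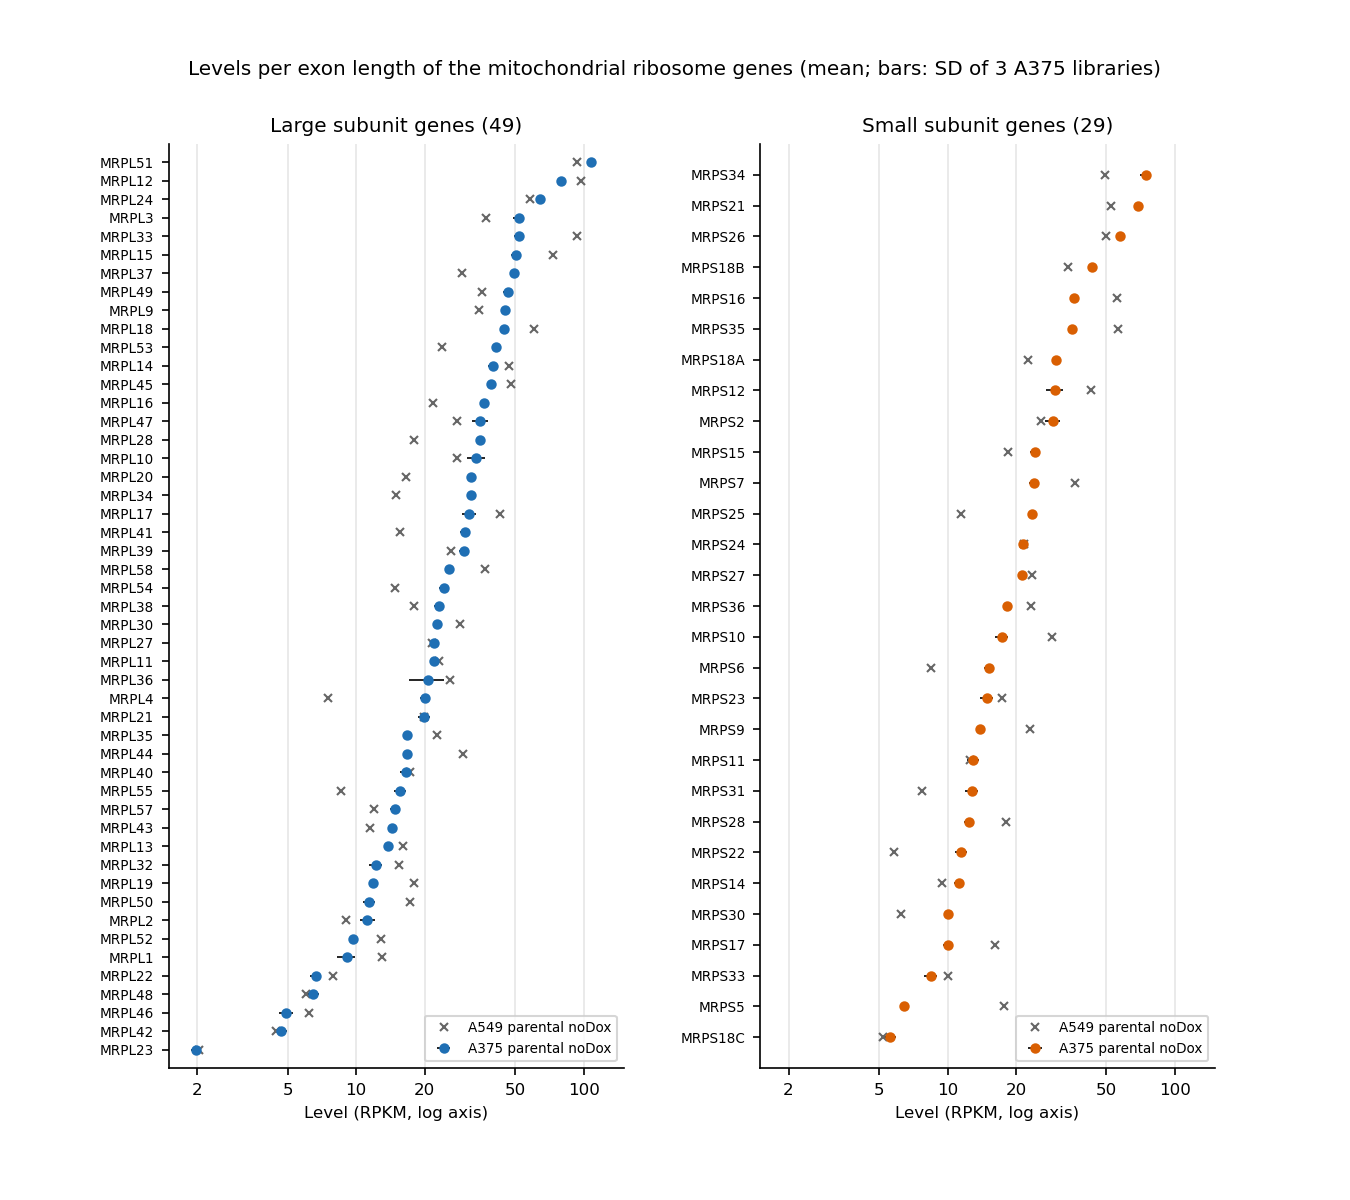
Mean level of each gene in A375 parental noDox cells (filled circles, bars give the SD of 3 libraries) and in A549 parental noDox cells (crosses, mean of 3 libraries by label), in RPKM on a log axis, for 49 large and 29 small subunit genes. MRPL51 is at 107.7 RPKM and MRPL23 at 1.97 RPKM in A375.

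Whether Dox alone altered these genes was asked in parental A375 cells. No mitochondrial ribosome gene passed an FDR of 0.05 in edgeR's quasi-likelihood test (0 of 78, against 0.0% of the 15993 genes tested). An unadjusted p under 0.05 was reached by 12 of the 78 genes, against 7.01% of all genes. The median log2 fold change was -0.02, with -0.02 for the large and -0.04 for the small subunit and 0.00 for all genes, and 45 of the 78 genes had a value below 0. All 78 values lay between -0.24 and 0.18, with a median SE of 0.057.

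MRPL33, whose protein has a bacterial homolog in the large subunit, had the smallest p. It stood at 76.1, 84.0 and 79.0 CPM in parental noDox and at 68.0, 64.3 and 69.2 CPM in parental Dox. The groups did not overlap, and the log2 fold change was -0.24 ± 0.055 (SE, edgeR FDR 0.503). DESeq2's Wald test called this gene (adjusted p = 0.0426) and no other of the 78. Over all 15993 genes, DESeq2 called 33 higher and 9 lower. MRPS28 (-0.18 ± 0.064, edgeR FDR 0.619) and MRPS2 (0.17 ± 0.060, edgeR FDR 0.629) came next. MRPS28 ranged from 21.6 to 23.9 CPM without and from 19.0 to 20.7 CPM with Dox, and MRPS2 from 66.1 to 76.6 and from 79.4 to 81.4 CPM. The groups of both genes did not overlap, and neither gene passed the test. MRPL33, MRPS28 and MRPS2 were picked by their small p, and genes with separate groups were not counted over all genes.

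The genes around the mitochondrial ribosome were likewise without calls in parental cells with Dox. In edgeR's test 0 of 5 further ribosomal proteins without MRP names, 0 of 27 assembly factors, 0 of 16 translation factors and 0 of 17 mitochondrial aminoacyl-tRNA synthetases passed, with 0, 4, 1 and 1 of them at an unadjusted p under 0.05. The 13 mRNAs of mitochondrial DNA, the templates of this ribosome, changed by -0.26 to 0.18 on the log2 scale, and 0 of them passed (1 at an unadjusted p under 0.05).

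**Figure D2:**
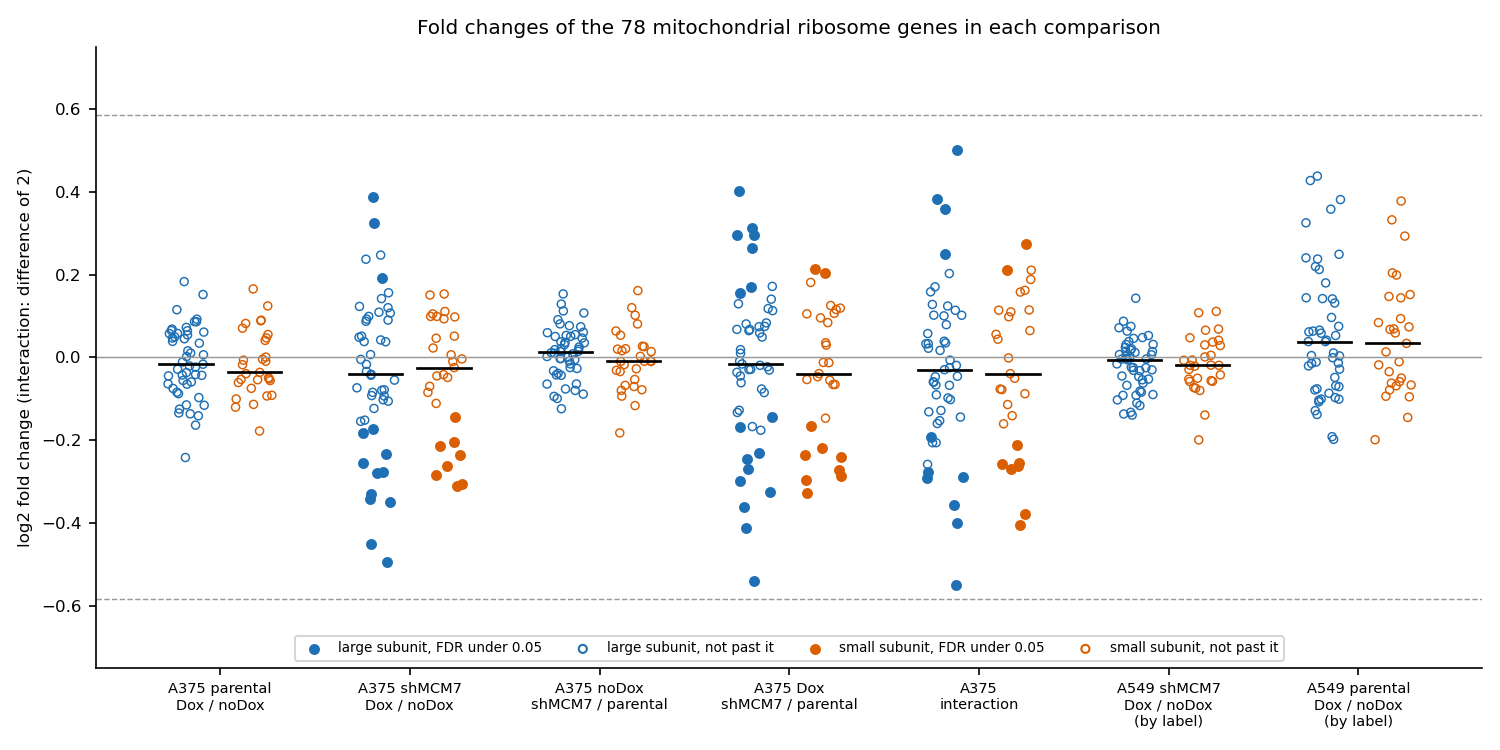
The log2 fold change of each of the 78 genes (large subunit blue, small subunit orange) in 7 comparisons; filled circles passed an edgeR FDR of 0.05, black lines are medians and dashed lines mark a 1.5-fold change. No point passes the dashed lines, and filled points appear in 3 of the 7 comparisons, all in A375.

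Induction of the shRNA was followed by modest changes in single genes of both subunits. In A375 shMCM7 cells with Dox against noDox, 19 of the 78 genes fell (24.4%, against 22.4% of 16087 genes) and 3 rose (3.85%, against 20.6%). Of the 49 large subunit genes 11 fell and 3 rose, and of the 29 small subunit genes 8 fell and 0 rose. An unadjusted p under 0.05 in either direction was reached by 28 of the 78 genes (35.9%) and by 9 of the 29 small subunit genes (31.0%), against 51.5% of all genes. The share of falling genes was near that of all genes. The median log2 fold change was -0.04 over the 78 genes and 0.00 over all genes, and the values ranged from -0.49 to 0.39. None of the 78 met the study's rule of a 1.5-fold change with p under 0.01 and FDR under 0.05, which 12% of all genes met.

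The genes that fell in the large subunit were MRPL37, MRPL19, MRPL35, MRPL38, MRPL58, MRPL39, MRPL20, MRPL18, MRPL13, MRPL21 and MRPL27. MRPL37, a protein found in mitochondrial but not in bacterial ribosomes, changed most. It was at 122, 128 and 129.9 CPM in shMCM7 noDox and at 87.3, 90.5 and 93.0 CPM in shMCM7 Dox. All 3 induced libraries lay below the other 9 A375 libraries, in which the lowest value was 122 CPM, and the log2 fold change was -0.49 ± 0.050 (SE, edgeR FDR 0.000117). MRPL37 lies on chromosome 1 of GRCh38 from 54184041 to 54225464 and overlaps genes on the opposite strand, among them SSBP3 and CYB5RL.

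MRPL19, a large subunit protein with a bacterial homolog, was at 44.7, 52.5 and 52.1 CPM without and at 35.6, 37.9 and 36.1 CPM with Dox. The groups did not overlap (-0.45 ± 0.071, edgeR FDR 0.00097), and the lowest uninduced value was that of replicate 1, which also had low MCM7. MRPL35, likewise with a bacterial homolog, was at 61.1, 64.2 and 66.2 CPM without and at 49.7, 52.8 and 48.3 CPM with Dox (-0.35 ± 0.057, edgeR FDR 0.00121). MRPL38, a mitochondria-specific protein of the central protuberance, was at 89.3, 88.1 and 89.8 CPM without and at 73.6, 64.6 and 73.2 CPM with Dox (-0.34 ± 0.059, edgeR FDR 0.00169). For both genes every induced library lay below every uninduced one. MRPL58 (ICT1), which releases stalled peptides from the ribosome, fell from 27.8 to 28.2 CPM in the noDox libraries to 21.4 to 24.3 CPM in the Dox libraries (-0.33 ± 0.065, edgeR FDR 0.00325).

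In the small subunit MRPS6, MRPS35, MRPS11, MRPS15, MRPS2, MRPS36, MRPS18B and MRPS18A fell. MRPS6, a homolog of bacterial S6, stood at 58.1, 58.3 and 63.7 CPM without and at 48.6, 48.3 and 48.8 CPM with Dox. The 3 induced libraries were close to each other and below all uninduced ones (-0.31 ± 0.054, edgeR FDR 0.00171). MRPS35, which has no bacterial homolog, changed by -0.31 ± 0.056 and MRPS11, a protein of the platform, by -0.29 ± 0.053 on the log2 scale. Without the 3 MRPS genes whose proteins are not in the small subunit, 6 of 26 fell (23.1%, against 22.4% of all genes) and 0 rose (against 20.6%), 7 of the 26 having an unadjusted p under 0.05 (26.9%, against 51.5%). By origin, 13 of 45 genes with a bacterial homolog fell and 1 rose, and 6 of 33 without one fell and 2 rose.

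The 3 genes that rose, MRPL34, MRPL57 and MRPL50, all encode large subunit proteins, MRPL34 with a bacterial homolog and the other two without. MRPL34 was at 52.9, 48.4 and 48.7 CPM without and at 79.8, 53.6 and 63.3 CPM with Dox. The groups did not overlap, but replicate 1 with Dox was far above the other two (0.39 ± 0.120, edgeR FDR 0.0273), and without it the log2 fold change was 0.22. MRPL57 was at 33.0, 31.3 and 31.4 CPM without and at 47.6, 35.5 and 37.0 CPM with Dox (0.32 ± 0.101, edgeR FDR 0.027), and at 0.18 without the same library, which was again the highest. MRPL50 was at 39.2, 37.8 and 37.8 CPM without and at 43.6, 47.1 and 40.8 CPM with Dox (0.19 ± 0.064, edgeR FDR 0.0352). With shMCM7 noDox 1 left out, 15 genes fell and 5 rose, and the log2 fold changes were -0.52 for MRPL37, -0.52 for MRPL19, -0.38 for MRPL35, -0.34 for MRPL38, -0.33 for MRPS6, 0.43 for MRPL34, 0.35 for MRPL57 and 0.21 for MRPL50. By contrast 0 genes rose without shMCM7 noDox 2 or without shMCM7 noDox 3, and 6 without shMCM7 Dox 2.

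**Figure D3:**
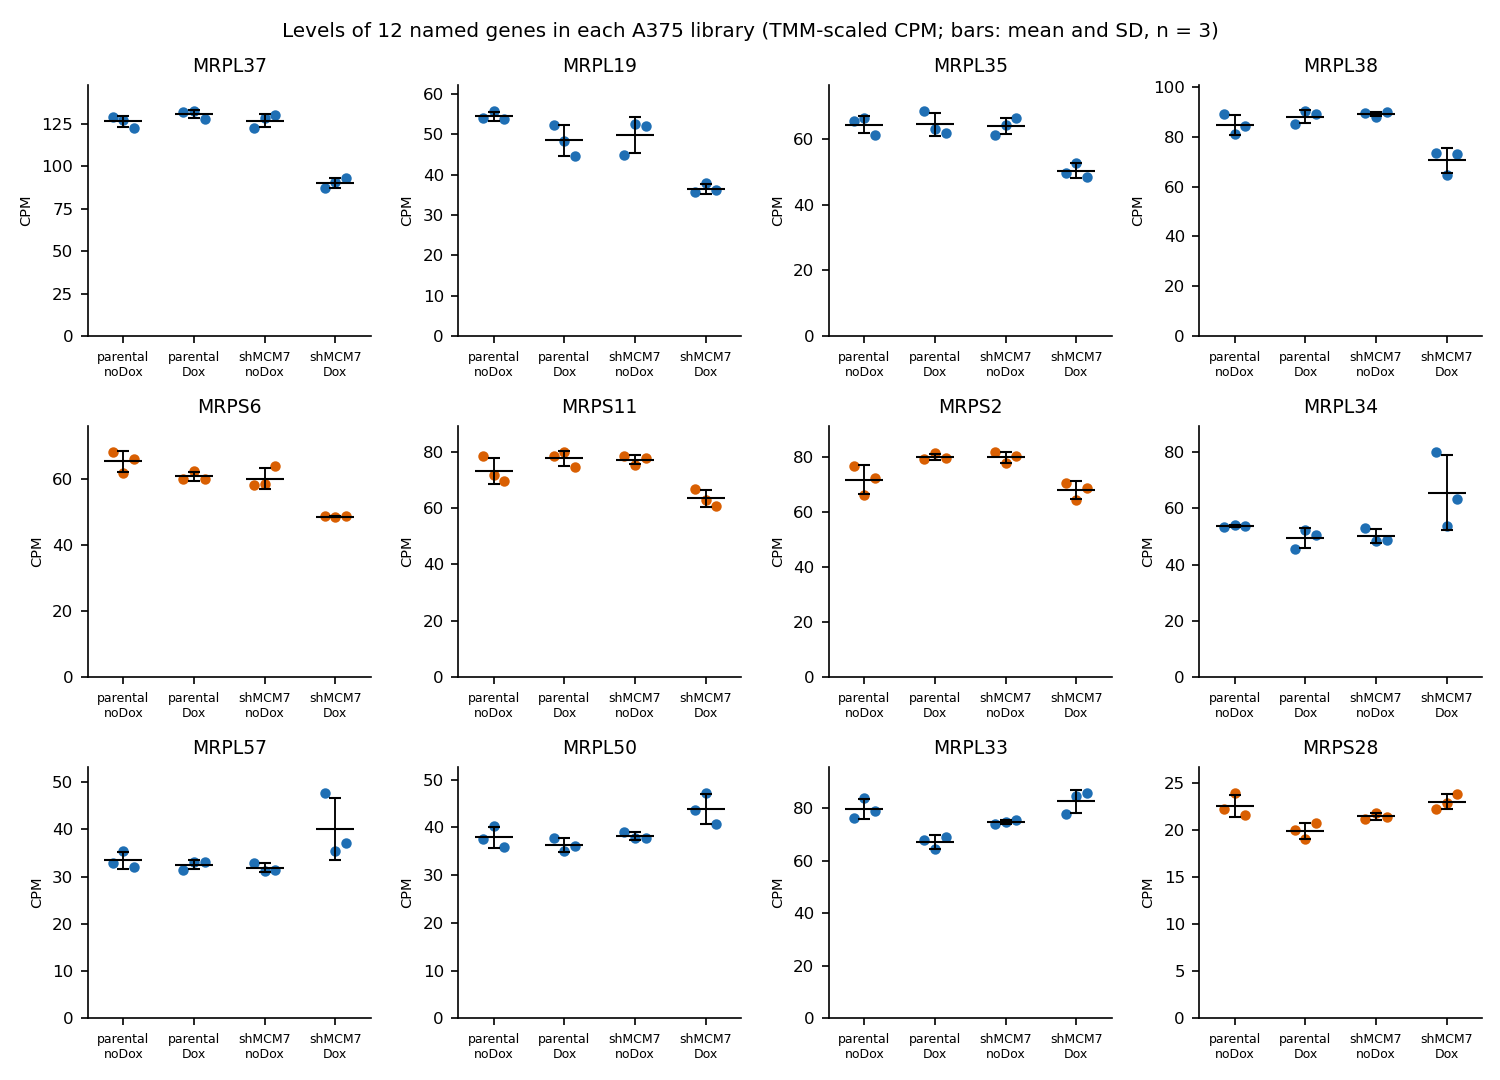
CPM of 12 genes in each of the 12 A375 libraries (points), with the mean and SD of 3 libraries (bars); axes start at 0 CPM. MRPL37 is at 87.3 to 93.0 CPM in the induced shMCM7 libraries and at 122 to 132 CPM in the other 9, whereas MRPL34 is highest in a single induced library at 79.8 CPM.

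Several genes chosen here for their role, and not by the rule for named genes, did not pass the test in induced shMCM7 cells. They were MRPL12, MRPL10 and MRPL11 of the stalk (log2 fold changes 0.09 ± 0.092, 0.11 ± 0.047 and -0.08 ± 0.049), MRPS12 of the decoding centre (-0.04 ± 0.081), MRPL45 near the exit tunnel (0.04 ± 0.052) and MRPL44, a relative of RNase III (-0.03 ± 0.059). Their edgeR FDR values lay between 0.0923 for MRPL10 and 0.682 for MRPS12.

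Other genes of mitochondrial gene expression were counted in the same shMCM7 comparison, in which 22.4% of all genes fell, 20.6% rose and 51.5% had an unadjusted p under 0.05. Among 27 ribosome assembly factors 7 fell (25.9%) and 0 rose, with 11 at an unadjusted p under 0.05 (40.7%), led by MPV17L2 (-0.45 ± 0.061) and the pseudouridine synthase TRUB2 (-0.48 ± 0.074). Of 17 mitochondrial aminoacyl-tRNA synthetases 7 fell (41.2%) and 0 rose, with 7 at an unadjusted p under 0.05 (41.2%), and with TARS2 at -1.22 ± 0.105 and FARS2 at -1.09 ± 0.104, which charge threonine and phenylalanine tRNAs. Their changes exceeded those of any MRPL or MRPS gene. Of 16 translation factors 3 fell and 1 rose, with the release factor MTRF1L at -0.77 ± 0.099, the initiation factor MTIF2 at -0.34 ± 0.061 and the peptide deformylase PDF at 0.24 ± 0.067.

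Of the 5 ribosomal proteins without MRP names CHCHD1 fell (-0.25 ± 0.056) and the other 4 did not pass. Among 10 factors of mitochondrial DNA transcription and maintenance POLG (-0.22 ± 0.048) and TFAM (-0.24 ± 0.056) fell, and 0 rose (4 at an unadjusted p under 0.05). Of 11 proteases and chaperones 3 fell and 1 rose, with TRAP1 at -0.51 ± 0.058, LONP1 at -0.36 ± 0.086 and HTRA2 at 0.35 ± 0.063. Of 10 regulators of mitochondrial biogenesis 5 rose and 1 fell, with MYC at 0.63 ± 0.095, PPARGC1B at 0.34 ± 0.068 and ESRRA at -0.46 ± 0.084. The 13 mRNAs of mitochondrial DNA changed by -0.21 to 1.70, and MT-ND6 (1.70 ± 0.187) and MT-CYB (0.50 ± 0.130) rose. MT-ND6 lies on the strand opposite to the other mitochondrial mRNAs, and since the strand setting of the counting is not given in the sources used here, its value is uncertain. These mRNAs took 2.63% to 3.41% of the TMM-scaled library size over the 12 A375 libraries.

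There were 19 pairs in which a protein-coding gene starts within 1 kb of a mitochondrial ribosome gene on the other strand. Both partners passed in 5 of them, in a comparison in which 22.4% of all genes fell and 20.6% rose. Other pairs of this kind in the genome were not counted. Both fell in 4 pairs, MRPL13 with MTBP, MRPL18 with TCP1, MRPL21 with IGHMBP2 and MRPL27 with EME1. MTBP also overlaps MRPL13 on the opposite strand, so that reads of these genes may be shared. In the other pair MRPL57 rose (0.32) and SKA3 fell (-0.36, edgeR FDR 0.000991). MRPS11 and MRPL46 start within this distance of each other, and MRPS11 fell whereas MRPL46 stood at -0.10 (edgeR FDR 0.133). The ETS letters were present before 5 of the 15 falling genes with a promoter sequence and before 18 of the 54 other genes.

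Before induction the shMCM7 cells were close to the parental cells in these genes. Between shMCM7 noDox and parental noDox, 0 of the 78 genes passed in edgeR's test, against 1.9% of genes higher and 1.07% lower. DESeq2 also called 0 of the 78, against 557 higher and 378 lower among 16093 genes. An unadjusted p under 0.05 was reached by 4 of the 78, against 16.2% of all genes. The log2 fold changes ran from -0.18 to 0.16, with a median of 0.01. MRPS34 had the smallest p, with 74.3, 71.4 and 70.2 CPM in shMCM7 noDox and 80.6, 78.1 and 87.0 CPM in parental noDox (-0.18 ± 0.053, edgeR FDR 0.115). MRPS2 (0.16 ± 0.058) and MRPS7 (0.12 ± 0.049) followed. Same-numbered libraries of these groups deviated together, and in a fit blocked on replicate number MRPS2, MRPS7, MRPL10, MRPL36 and MRPL49 were higher and MRPS34 lower in shMCM7 cells, that is 5 and 1 of 78, against 8.4% and 7.62% of all genes. Without shMCM7 noDox 1 the unblocked test again called 0 genes.

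With both cells under Dox, 18 genes were lower in shMCM7 than in parental A375 cells (23.1%, against 24.8% of 16086 genes) and 9 were higher (11.5%, against 23.2%). By symbol, 10 MRPL genes were lower and 7 higher, and 8 MRPS genes were lower and 2 higher. Without MRPS18A, MRPS30 and MRPS36, 6 of 26 MRPS genes were lower (23.1%, against 24.8%) and 2 higher (7.69%, against 23.2%). None of the 78 genes met the study's 1.5-fold rule, which 16.0% of all genes met. This comparison shares its shMCM7 Dox libraries with the one above, and 18 of the 19 genes that fell there were lower here (MRPL27 was not called). MRPL37 again led, at 132, 132 and 128 CPM in parental Dox (-0.54 ± 0.049, edgeR FDR 3.63e-05). MRPS6 (-0.33 ± 0.048), MRPL19 (-0.41 ± 0.067), MRPL35 (-0.36 ± 0.059) and MRPS15 (-0.27 ± 0.049) followed.

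The higher genes included MRPL33, at 77.6, 84.8 and 85.6 CPM in shMCM7 Dox against 68.0, 64.3 and 69.2 CPM in parental Dox. The groups did not overlap, and the log2 fold change was 0.29 ± 0.057 (edgeR FDR 0.00256). MRPS27, a pentatricopeptide repeat protein of the small subunit, was at 146, 165 and 167 CPM in shMCM7 Dox against 138, 136 and 137 CPM in parental Dox (0.21 ± 0.059, edgeR FDR 0.0151). MRPL50 (0.26 ± 0.065), MRPS28 (0.20 ± 0.060) and MRPL36 (0.31 ± 0.096) were also higher. The number of higher genes fell to 4 without shMCM7 Dox 1 or without parental Dox 2 and to 5 without parental Dox 3.

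The difference between both cells in their response to Dox was tested directly as an interaction over the 12 A375 libraries. The Dox effect was lower in shMCM7 than in parental cells for 14 of the 78 genes (17.9%, against 16.5% of 16334 genes) and higher for 6 (7.69%, against 13.5%). None met the 1.5-fold rule, which 10.5% of all genes met. By symbol, 7 of the 14 were MRPL and 7 MRPS genes, and of the 6, 4 were MRPL and 2 MRPS genes. Without MRPS18A, MRPS30 and MRPS36, 6 of 26 MRPS genes were lower (23.1%, against 16.5%) and 2 higher (7.69%, against 13.5%). All 14 had fallen in induced shMCM7 cells. MRPL37 had the largest difference (-0.55 ± 0.062, edgeR FDR 4.51e-05), with a Dox effect of 0.05 ± 0.047 in parental cells.

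MRPL38 (-0.40 ± 0.079), MRPS2 (-0.40 ± 0.079), MRPS11 (-0.38 ± 0.077) and MRPL35 (-0.36 ± 0.078) followed. For MRPS2 the effects of Dox had opposite signs, 0.17 in parental and -0.24 in shMCM7 cells, and only the second passed its own test. MRPL33 had the opposite pattern, with -0.24 in parental and 0.14 ± 0.054 in shMCM7 cells, neither of which passed alone in edgeR's test, and a difference of 0.38 ± 0.073 (edgeR FDR 0.00173). MRPL34 (0.50 ± 0.148), MRPS28 (0.27 ± 0.079), MRPL50 (0.25 ± 0.086) and MRPS22 (0.21 ± 0.067) were also higher, as was MRPL57. Without shMCM7 noDox 1 the counts were 13 and 6, and the difference was -0.57 for MRPL37 and 0.38 for MRPL33. The lower genes numbered 9 without shMCM7 noDox 2, shMCM7 noDox 3 or parental noDox 3, and the higher genes 3 without shMCM7 noDox 2, shMCM7 noDox 3 or parental Dox 3 and 2 without parental Dox 2 or parental noDox 2.

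**Figure D4:**
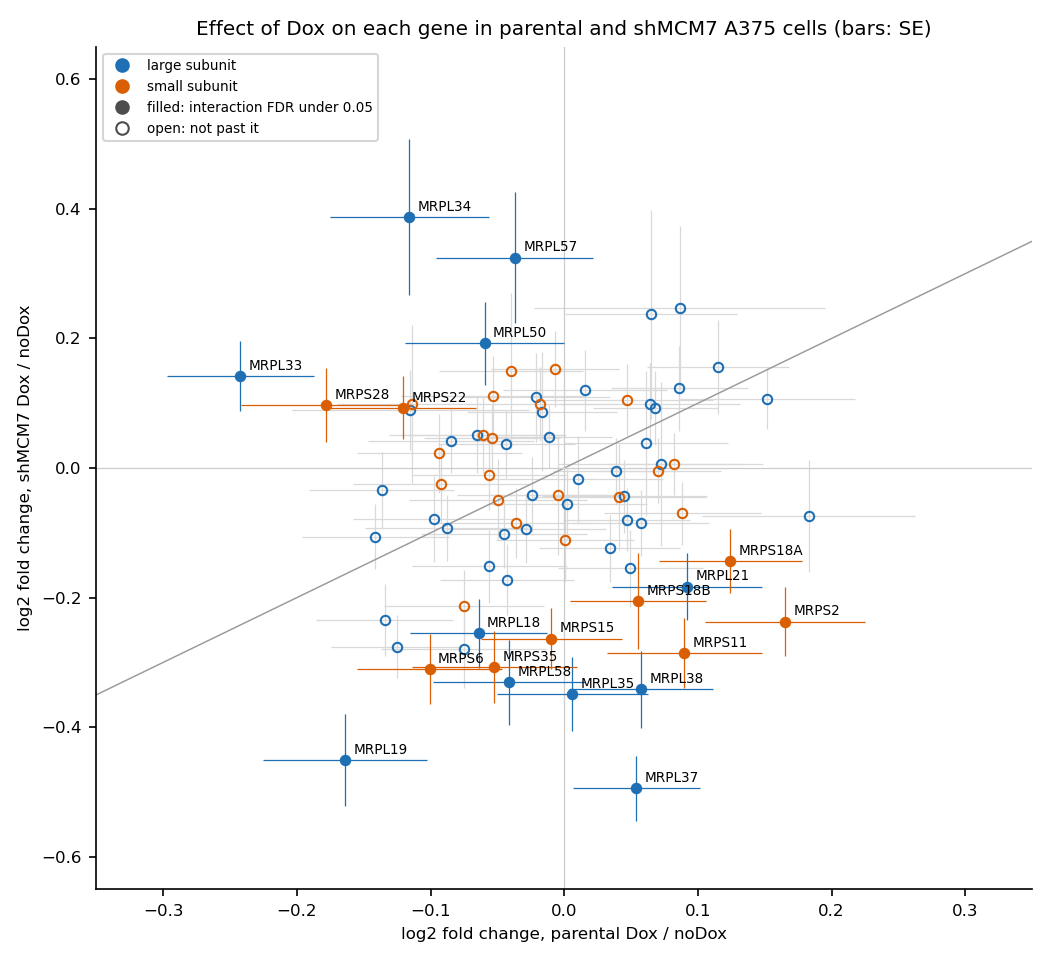
Log2 effect of Dox in parental (horizontal) and shMCM7 (vertical) A375 cells for the 78 genes, with SE bars and the line of equal effects; filled and named points passed an FDR of 0.05 for the interaction. MRPL37 lies lowest at -0.49 in shMCM7 and 0.05 in parental cells, and MRPL33 farthest left at -0.24 in parental and 0.14 in shMCM7 cells.

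Summed over the family, the transcripts changed little in A375. The 78 genes together made up 4656 to 4798 CPM in shMCM7 Dox and 4824 to 4926 CPM in shMCM7 noDox (4824 and 4826 CPM without replicate 1), and 4743 to 4860 CPM in parental Dox and 4683 to 4960 CPM in parental noDox. The shMCM7 Dox values lay below the shMCM7 noDox values, but overlapped both parental groups. The large subunit genes summed to 2949 ± 50.6 CPM and the small subunit genes to 1773 ± 21.1 CPM in shMCM7 Dox (SD, n = 3). The ratio of large to small subunit transcripts was 1.64 to 1.67 over the 12 A375 libraries and 1.47 to 1.54 over the 12 A549 libraries. Its highest A549 values were those of shMCM7 Dox 3 (1.54), parental noDox 2 (1.52) and shMCM7 noDox 2 (1.51), the libraries with low MCM7, and parental noDox 1 followed with 1.51.

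In A549, compared by label, no mitochondrial ribosome gene passed. In shMCM7 Dox against noDox, edgeR called 0 of 78 genes (against 0.0% of 13550) and DESeq2 0, and 0 had an unadjusted p under 0.05 (against 0.45% of all genes). In parental Dox against noDox, edgeR called 0 of 78 (against 0.0% of 13494) and DESeq2 0 (against 14 higher and 0 lower over all genes). An unadjusted p under 0.05 in edgeR's test was reached by 2 of the 78 (against 8.43%). The median SE was 0.132 and 0.116 on the log2 scale, above the 0.057 of A375. MRPS25 (0.38 ± 0.137, edgeR FDR 0.506), MRPL45 (-0.20 ± 0.077) and MRPL55 (0.44 ± 0.213) had the smallest p in parental cells, and MRPL48 (0.14 ± 0.116), MRPS34 (-0.20 ± 0.167) and MRPL40 (-0.08 ± 0.10) in shMCM7 cells. MRPL55 was called (0.73 ± 0.119, edgeR FDR 0.0419) when parental noDox 3 was left out. Over all 13590 genes, that fit called 382 higher and 1 lower. Leaving out any other single A549 library, those with low MCM7 included, gave 0 calls in either comparison. Since shMCM7 Dox 3 (95.6 CPM) and shMCM7 noDox 2 (100.3 CPM) both had low MCM7, the labels did not separate low from normal MCM7. The lack of calls therefore cannot show how these genes behave at low MCM7.

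Library by library, the summed level in A549 was 4765, 4800 and 4000 CPM in shMCM7 Dox, 4794, 4129 and 4807 CPM in shMCM7 noDox, 4882, 4906 and 4871 CPM in parental Dox, and 5119, 4114 and 4993 CPM in parental noDox (replicates 1 to 3). The lowest sums were those of shMCM7 Dox 3, parental noDox 2 and shMCM7 noDox 2, the libraries with MCM7 at 95.6, 90.3 and 100.3 CPM. Their part in the comparisons by label was not tested, since a group cannot be formed from measured values. Of the 78 genes 30 had their lowest A549 value in shMCM7 Dox 3, 20 in parental noDox 2 and 9 in shMCM7 noDox 2, against 14.0%, 14.4% and 9.51% of 13401 genes. Parental noDox 1 held the highest value of 36 of the 78 genes, against 14.4% of all genes.

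Of the genes that fell in induced A375 cells, the 3 with the smallest p in edgeR's test are given in the same A549 libraries. The other falling genes are not given here. Genes with their 3 lowest values in the libraries with low MCM7 were not counted, neither among the falling genes nor over all genes. MRPL19 was at 95.2, 80.5 and 46.5 CPM in shMCM7 Dox, 82.8, 47.2 and 91.1 CPM in shMCM7 noDox, 85.6, 84.1 and 88.6 CPM in parental Dox, and 102.6, 53.8 and 91.0 CPM in parental noDox. Its 3 lowest values were those of the libraries with low MCM7. MRPL37 was at 76.0, 85.7 and 57.6 CPM in shMCM7 Dox, 78.8, 57.1 and 78.8 CPM in shMCM7 noDox, 83.7, 82.9 and 78.1 CPM in parental Dox, and 77.9, 61.9 and 84.1 CPM in parental noDox. MRPL35 ranged from 60.4 CPM in shMCM7 noDox 2 to 106.4 CPM in parental noDox 1. The same 3 libraries were the lowest for both genes. MRPL34, which rose in A375, lay between 22.7 CPM in parental noDox 2 and 27.9 CPM in parental Dox 1, and MRPL33 between 123 CPM in shMCM7 Dox 2 and 156 CPM in parental noDox 1.

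**Figure D5:**
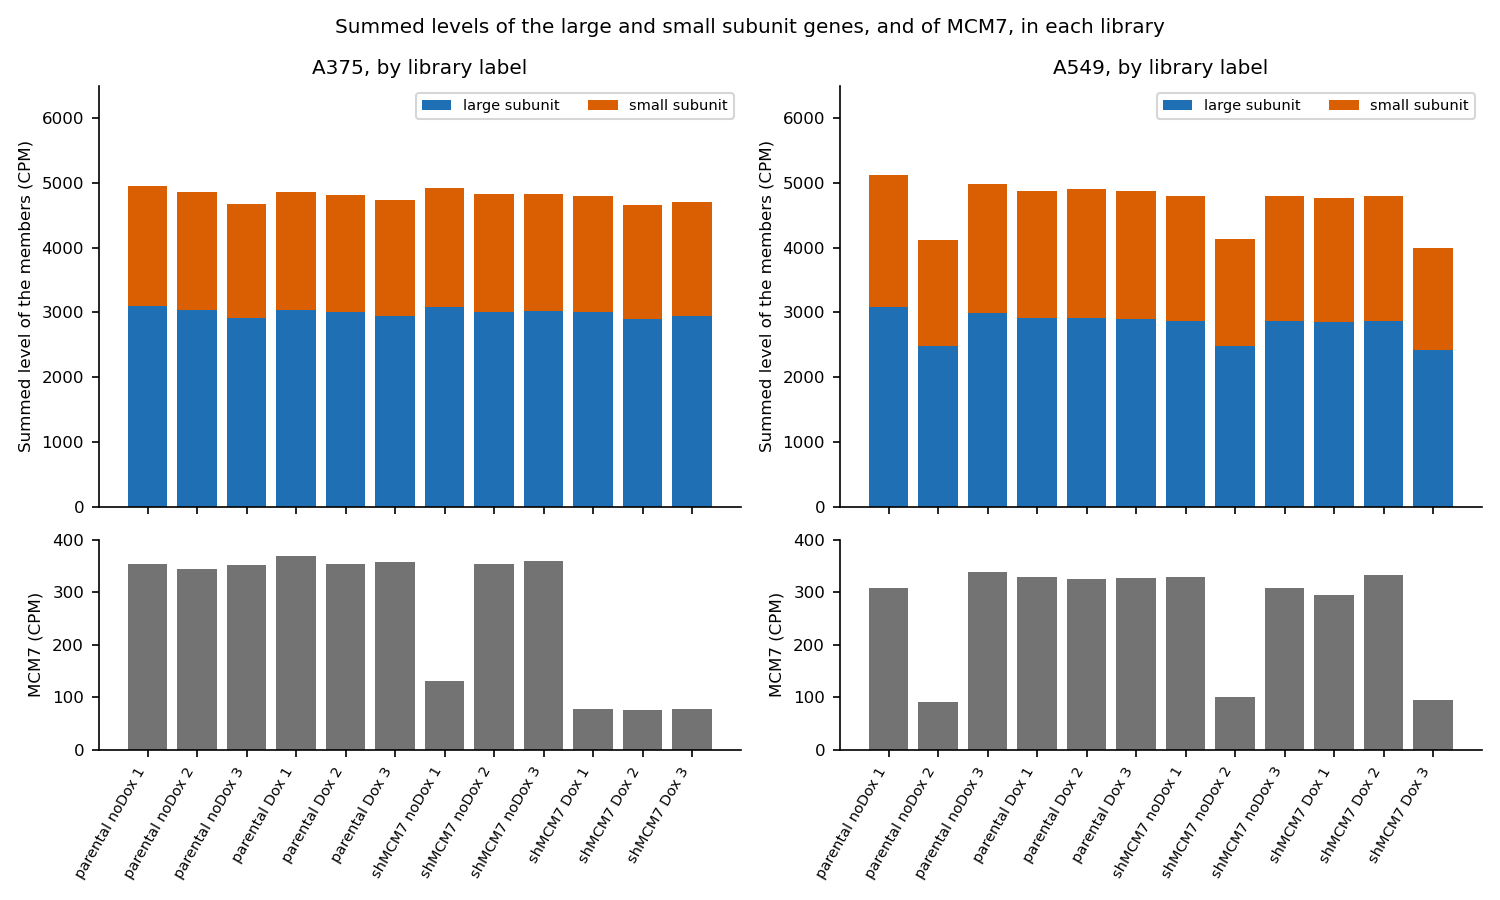
Summed CPM of the large (blue) and small (orange) subunit genes in each library (upper panels, stacked) and CPM of MCM7 (lower panels) in A375 and A549, by library label; axes start at 0. The A375 sums lie between 4656 and 4960 CPM, and the 3 lowest A549 sums, 4000, 4114 and 4129 CPM, are those of the libraries with the lowest MCM7.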

How the data were processed

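Total RNA of A375 and A549 cells was sequenced in 24 libraries, 3 replicates in each of 8 groups taken from the sample labels. The deposited files hold raw read counts per Ensembl gene made by the authors. Their processing notes name bcl2fastq 2.19, Trimmomatic, STAR 2.7.1, featureCounts, edgeR and GRCh38.p10, and the strand setting of the counting is not given in the sources used here. Reads of genes that overlap on opposite strands (38 of the 78 genes) or that have a named pseudogene (34 of the 78) may therefore be shared.

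Symbols, coordinates and exon lengths were taken from GENCODE 29 (GRCh38). The 78 genes, the further gene lists and the tests were chosen with earlier results of these data known. Counts were tested with edgeR 4.0.16 (R 4.3.3), with filterByExpr, TMM factors and the quasi-likelihood test, over all genes and with Benjamini-Hochberg adjustment (FDR under 0.05). Each comparison used the 6 libraries of its groups, and the interaction the 12 A375 libraries. P-values set each difference between groups against the spread between the 3 replicates within groups, with that spread moderated over all genes. CPM use TMM-scaled library sizes within a line, and RPKM divide them by the union of exons. Alternatives were DESeq2 1.42.0, other size factors, other filters, all 12 libraries of a line, a replicate block, the study's 1.5-fold rule and each library left out in turn.

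Named among the 78 genes were, per comparison and direction, the 5 with the smallest p past the FDR, or the 3 with the smallest p where none passed, and the 3 highest and 3 lowest of each subunit. Named in the other lists were the 2 with the smallest p per direction, and MCM7 served as the check. Overlap of groups was described only for genes named in the text, and was not counted over all genes. The replicate number paired the libraries of shMCM7 noDox and parental noDox in A375, where the deviations of same-numbered libraries correlated with r of 0.318, 0.212 and 0.341, all above 0.1. No 2 replicates agreed within sampling noise (lowest chi-square per degree of freedom 1.95). The A375 libraries held between 146656792 and 283721575 counts, so that 3 counts equal 0.0106 to 0.0205 CPM. For A549 the totals lay between 17911338 and 23452823, and 3 counts equal 0.128 to 0.167 CPM. A549 libraries were not regrouped by their MCM7 level, since groups were taken from labels only.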

Additional observations from a re-analysis of the deposited data

Results flagged for a closer look

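The effect of Dox differed between shMCM7 and parental A375 cells, by the interaction term of edgeR's test, for 20 mitochondrial ribosome genes. It was lower in shMCM7 cells for 14 (17.9%, against 16.5% of all genes) and higher for 6 (7.69%, against 13.5%). The share of lower genes was near that of all genes. Among the lower genes the difference in the log2 effect of Dox was -0.55 for MRPL37, -0.40 for MRPL38, -0.40 for MRPS2, -0.38 for MRPS11 and -0.36 for MRPL35. Among the higher genes it was 0.38 for MRPL33, 0.27 for MRPS28, 0.50 for MRPL34, 0.21 for MRPS22 and 0.25 for MRPL50. Leaving out single libraries cost MRPL50 its call 8 times out of 12, MRPS22 6 times and MRPS28 2 times.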

How the results depend on the processing

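Directions did not reverse in any of the alternatives run. In parental A375 cells DESeq2's Wald test called 1 gene lower, against 0 in edgeR. In shMCM7 Dox against noDox, 5 genes rose with all 12 libraries in the fit and 7 with the replicate block, against 3. Under the study's 1.5-fold rule 0 genes rose and 0 fell there, and likewise 0 and 0 in shMCM7 against parental Dox and 0 and 0 in the interaction. With the replicate block 5 genes were higher and 1 lower in shMCM7 noDox than in parental noDox, against 0 and 0. The block moved no other count of calls by more than 1.5 times, and the numbers did not pair the libraries of the other comparisons (r of 0.217, 0.018 and 0.319 in A375 parental cells, and -0.657 and -0.687 for 2 of 3 numbers in A549 shMCM7 cells). On library totals the sums of A549 parental Dox were 2891 CPM for the large and 1960.0 CPM for the small subunit, against 2912 and 1974 CPM. When single libraries were omitted, 0 to 6 genes rose and 14 to 19 fell in shMCM7 Dox against noDox, 4 to 12 were higher and 14 to 18 lower in shMCM7 against parental Dox, 2 to 6 were higher and 9 to 13 lower in the interaction, and 0 to 1 were higher in A549 parental cells. The cause of these shifts was not tested, apart from the smaller number of libraries. In A549 the median SE was 0.132 in shMCM7 and 0.116 in parental cells, against 0.057 for the effects of Dox in A375; the parts of depth and of libraries with low MCM7 in this gap were not tested. By the longest transcript in place of all exons, MRPL23 moved from 1.97 to 6.38 RPKM and MRPL33 from 51.8 to 109.3 RPKM.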
